A study of Drosophila melanogaster with 4 samples.

Results

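Genes that store, mobilise, build and burn fat were examined in whole early (pale) pupae of Drosophila melanogaster in which the dopamine receptor Dop1R2 had been knocked down. The set holds 10 genes, taken by name: the lipid droplet genes bmm, Lsd-1 and Lsd-2, the triglyceride enzyme gene mdy, the fatty acid synthesis genes ACC, FASN1 and Desat1, their regulator SREBP, and the fatty acid oxidation genes whd and Mtpalpha. In the probe annotation 9 of the 10 genes have a probe set of their own, and they hold 11 of the 13966 probe sets on the array, with a pair each for mdy and ACC. No probe set carries the name Mtpalpha, so that gene was not analysed here.

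There were 4 Affymetrix arrays, 2 per group. Dop1R2 RNAi pupae (UAS-dsDop1R2/+;Act5C-Gal4/+) expressed a hairpin against the receptor in all tissues from the ubiquitous actin driver, and control pupae (w1118;Act5C-Gal4/+) carried the driver without the hairpin. The methods also give control flies as the progeny of w1118 and the driver line, whereas the legend to the array results describes siblings with the hairpin and the balancer TM6B. The methods describe more than 1 hairpin line, and which was used for the arrays is not given in the sources used here. All crosses were kept at 29 °C, RNA came from pools of 10 to 20 pupae, and the samples are described as separate biological replicates. Dop1R2 itself has no probe set with its name alone, so the knockdown was not checked here.

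Insects store energy as triglyceride in lipid droplets of the fat body, an organ with the roles of liver and adipose tissue. Fatty acids are built from acetyl-CoA by acetyl-CoA carboxylase (ACC) and fatty acid synthase (FASN1), are desaturated by Desat1, and are joined to diacylglycerol by the acyltransferase midway (mdy). Droplets are coated by the perilipins Lsd-1 and Lsd-2 and are emptied by the lipase Brummer (bmm), and the fatty acids released enter mitochondria through the carnitine palmitoyltransferase withered (whd). A pupa does not feed and lives on the stores laid down by the larva.

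None of the 9 measured genes passed the test between Dop1R2 RNAi and control pupae, in either direction. The 2 with the largest differences, Desat1 and bmm, were higher in Dop1R2 RNAi pupae by 2.36-fold and 2.09-fold, and both Dop1R2 RNAi arrays lay above both control arrays. The signal, an intensity on a linear scale that Microarray Suite gives for each probe set, was put on the log2 scale and tested with limma over the 8749 probe sets that were not dim, with p adjusted over all of them (Benjamini-Hochberg, threshold 0.05). A probe set was not dim where it reached the 40th percentile of the array on at least 2 of the 4 arrays. Over these 8749, 1.38% were called higher and 0.103% lower. With unadjusted p under the same threshold, 2 of the 9 genes were higher (Desat1 and bmm) and 0 lower, against 7.53% higher and 5.51% lower among all probe sets tested. The methods name a t-test without giving its form. Its equal-variance form put 2 of the 9 under the threshold without adjustment, Desat1 and FASN1, both higher. Of all 8749 probe sets it put 467 higher and 323 lower. With adjustment it called 0 of the 8749, so that 0 of the 9 passed says nothing about these genes.

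The log2 fold changes of the 9 genes ran from -0.36 for Lsd-1 to 1.24 for Desat1, with a median of 0.27 beside a median of -0.04 over all probe sets tested. In 5 of the 9 genes both Dop1R2 RNAi arrays were above both control arrays, in 3 both were below, and in 1 the groups overlapped. Of all probe sets tested, 21.1% lay wholly above and 24.0% wholly below the controls. With 2 arrays against 2 an exact permutation test cannot give a two-sided p below 0.333, so single genes were tested only in the limma fit.

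**Figure D1:**
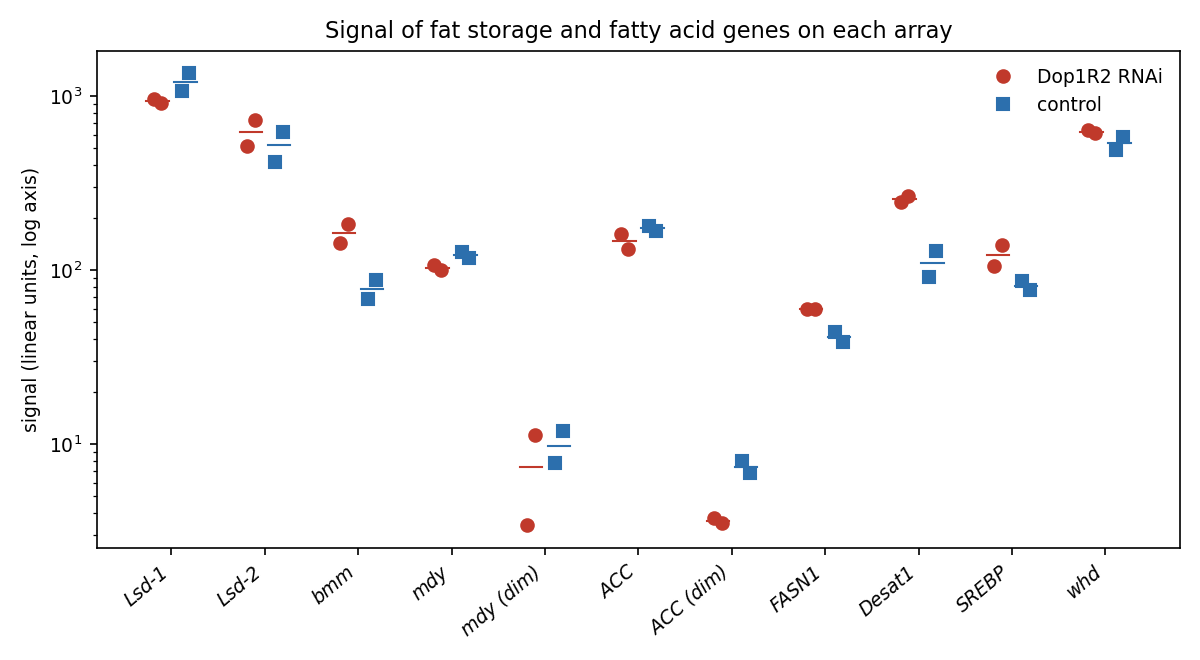
Signal (linear units on a log axis) of each probe set of the 9 measured genes on each array, with Dop1R2 RNAi arrays as red circles, control arrays as blue squares and group means as short lines. Desat1, bmm, SREBP, FASN1 and whd sit above the controls on both Dop1R2 RNAi arrays, Lsd-1, mdy and ACC sit below, and Lsd-2 overlaps; the dim second probe sets of mdy and ACC were not tested, and the heights of different probe sets are not comparable.

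Desat1 encodes the acyl-CoA delta-9 desaturase that makes the common monounsaturated fatty acids. Its signal was 246 and 266 in Dop1R2 RNAi pupae against 91.0 and 129 in controls. The groups were well apart, and the lower Dop1R2 RNAi array was above the higher control array. The log2 fold change was 1.24 (standard error 0.26, 95% interval 0.63 to 1.85, adjusted p = 0.0926), and 272 of the 8749 probe sets tested, 3.11%, had a larger one. The smallest change among all probe sets that were called was 2.39-fold, against 2.36-fold for Desat1. Calls were made on adjusted p and not on fold, so 2.39-fold is not a cutoff. Desat1 passed without Dop1R2 RNAi replicate 1 (log2 fold change 1.30, adjusted p = 0.0108, where 4.08% of all probe sets were called higher) and without Dop1R2 RNAi replicate 2 (1.18, adjusted p = 0.0438, where 1.92% were). In those fits the lone array of the group is assumed to vary like the controls. Without control replicate 1 its log2 fold change was 0.99 and its adjusted p 0.491.

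The lipase gene bmm, the fly counterpart of the mammalian adipose triglyceride lipase, had signals of 142 and 184 in Dop1R2 RNAi pupae against 68.6 and 87.4 in controls. Again no control array reached the Dop1R2 RNAi arrays. Its log2 fold change was 1.06 (standard error 0.26, 95% interval 0.45 to 1.67, adjusted p = 0.155). A larger fold change was seen for 351 of the tested probe sets, 4.01%. Without Dop1R2 RNAi replicate 1 the log2 fold change of bmm was 1.25, and without Dop1R2 RNAi replicate 2 it was 0.88. It was 0.89 without control replicate 1 and 1.24 without control replicate 2.

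The perilipins, which coat the droplets on which Brummer acts, had smaller differences. Lsd-1 had signals of 962 and 912 in Dop1R2 RNAi pupae against 1068 and 1352 in controls, so that the Dop1R2 RNAi arrays were the lower ones. Its log2 fold change of -0.36 (standard error 0.21, 95% interval -0.85 to 0.13, adjusted p = 0.498) includes 0 in its interval. Lsd-2, the perilipin that favours storage, had signals of 519 and 728 against 416 and 625. Here the groups overlapped, and in each group replicate 2 was the brighter array. The log2 fold change of Lsd-2 was 0.27 (standard error 0.29, 95% interval -0.41 to 0.95, adjusted p = 0.719), the least precise of the 9, and without control replicate 1 it was -0.02.

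Of the enzymes that build fat, FASN1 was higher and ACC and mdy were lower on both Dop1R2 RNAi arrays, none of them past the test. FASN1 had a signal of 59.7 and 60.05 in Dop1R2 RNAi pupae against 44.1 and 38.6 in controls. The Dop1R2 RNAi arrays were almost equal and above both controls, with a log2 fold change of 0.54 (standard error 0.26, 95% interval -0.09 to 1.16, adjusted p = 0.440). ACC, whose product malonyl-CoA is the building block that FASN1 uses, had signals of 162 and 133 against 178 and 169 (log2 fold change -0.24, 95% interval -0.79 to 0.31, adjusted p = 0.686). The gap between the groups was narrow, since 162 and 169 are its nearest values. For mdy, the diacylglycerol acyltransferase of the last step to triglyceride, the signals were 107 and 99.6 in Dop1R2 RNAi pupae against 127 and 118 in controls (log2 fold change -0.25, 95% interval -0.77 to 0.28, adjusted p = 0.670).

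The second probe sets of ACC and mdy were dim on all 4 arrays and were not tested. That of ACC had signals of 3.74 and 3.52 in Dop1R2 RNAi pupae against 8.001 and 6.84 in controls, all under the 20th percentile of the array. That of mdy had 3.41 and 11.3 against 7.76 and 11.8, with overlapping groups and 2 of 4 arrays under that percentile. Signals that low are close to background, and no fold change is given for them.

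SREBP is the membrane-bound transcription factor that, once cut free, turns on lipid synthesis genes, among them FASN1 and ACC in flies. Its signal was 106 and 140 in Dop1R2 RNAi pupae against 86.1 and 76.9 in controls, higher on both Dop1R2 RNAi arrays. The log2 fold change was 0.58 (standard error 0.25, 95% interval -0.01 to 1.17, adjusted p = 0.389). FASN1, at 0.54, and ACC, at -0.24, had estimates of opposite sign, but both 95% intervals include 0 and neither passed. Whether SREBP acted on them was not tested. Of the other genes that act with SREBP, the escort protein SCAP differed by a log2 value of 0.49 (adjusted p = 0.559) and the protease S2P by -0.02 (adjusted p = 0.989).

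For fatty acid oxidation the array measured whd, the entry step into mitochondria. Its signal was 637 and 613 in Dop1R2 RNAi pupae against 490 and 579 in controls. Both Dop1R2 RNAi arrays were above the controls, by a small margin, and the log2 fold change was 0.23 (standard error 0.21, 95% interval -0.26 to 0.73, adjusted p = 0.670). Mtpbeta, the partner subunit of the protein that Mtpalpha encodes and not itself one of the 10 genes, had signals of 401 and 351 against 532 and 586, lower on both Dop1R2 RNAi arrays (log2 fold change -0.57, 95% interval -1.08 to -0.07, adjusted p = 0.334).

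**Figure D2:**
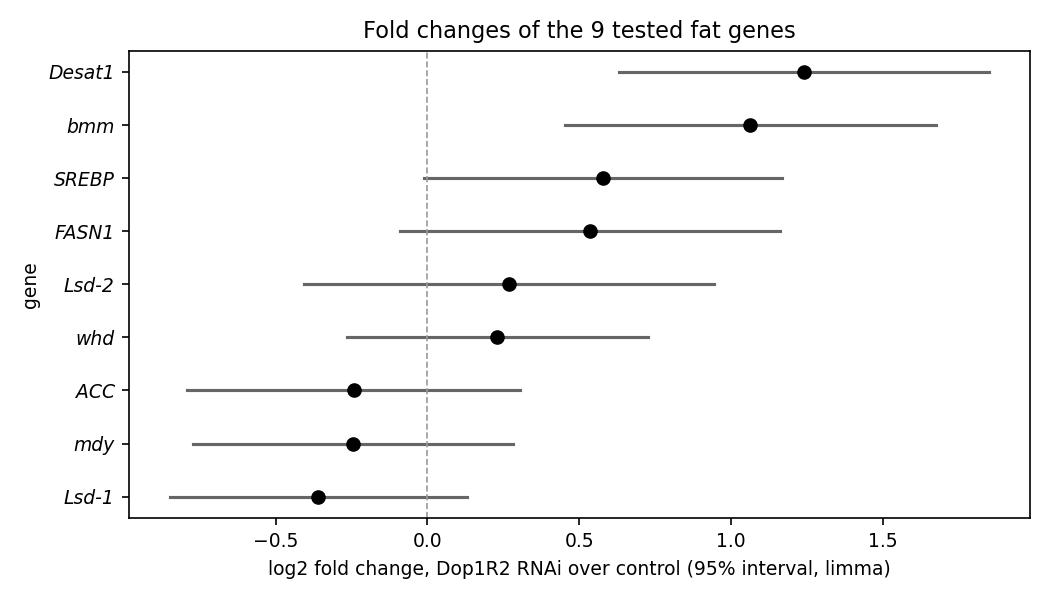
Log2 fold change of Dop1R2 RNAi over control pupae (points) with the 95% interval from limma (lines) for the 9 tested genes, ordered by size. The intervals of Desat1 (0.63 to 1.85) and bmm (0.45 to 1.67) lie above 0 and those of the other 7 genes include it; no gene passed after adjustment over 8749 probe sets.

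The 9 genes were set beside a wider list of lipid genes, written when the study's own table of changed genes was known. It has 96 further genes, of which 84 have a probe set and 69 were not dim. Each was represented by its brightest probe set. Of the 69, 4 rose and 0 fell at adjusted p under the threshold, and with unadjusted p 12 were higher and 7 lower, beside 1.38% and 0.103% of all probe sets tested with adjusted p and 7.53% and 5.51% with unadjusted p. All 4 that rose are in the study's table, so neither their count nor the counts by role below are independent evidence of a direction. Among the 4, CG5966 reached the filter on the Dop1R2 RNAi arrays only. With so few called among all probe sets, 0 called in a small group is usual. Among the remaining 65 genes, 0 passed (8 higher and 7 lower with unadjusted p), with a median log2 fold change of -0.03.

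The largest change among all lipid genes was that of CG9747, which encodes an acyl-CoA desaturase of the same family as Desat1. Its signal was 1269 and 2503 in Dop1R2 RNAi pupae against 87.6 and 68.8 in controls, a 23.0-fold rise (log2 fold change 4.52, standard error 0.35, adjusted p = 0.00191). With 1 array left out its log2 fold change ran from 4.03 to 5.01. No other desaturase gene tested passed. CG8630 had signals of 296 and 279 against 436 and 379 (log2 fold change -0.50, adjusted p = 0.391), Desat2 and CG15531 had log2 fold changes of -0.14 and -0.42, and CG9743 one of 0.43. The dihydroceramide desaturase ifc had signals of 244 and 317 against 120 and 149, all Dop1R2 RNAi values above the controls, with a log2 fold change of 1.06 (adjusted p = 0.147). CG5326, of the elongase family, had 143 and 264 against 46.6 and 89.0, also without overlap (log2 fold change 1.60, standard error 0.41, adjusted p = 0.176). In the group of desaturases and elongases 1 of 12 tested genes rose, beside 1.38% of all probe sets tested. The median log2 fold change of the group was -0.07.

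A pair of genes rose in the group of droplet proteins and lipases. CG11029, annotated as a lysophospholipase, rose 5.26-fold, from 68.1 and 81.5 to 304 and 504 (log2 fold change 2.39, standard error 0.30, adjusted p = 0.0138). CG5966, annotated to lipid catabolism, rose 3.88-fold, from 18.6 and 18.1 to 68.0 and 74.9 (log2 fold change 1.96 ± 0.32, SE, adjusted p = 0.0402). Its controls were dim, and it reached the filter on the Dop1R2 RNAi arrays only. It was therefore tested only through the group where it was higher, and its direction is not independent of the filter. Adding 32 to every signal gave it a log2 fold change of 1.04 (adjusted p = 0.0328). With 1 array left out the log2 fold change of CG11029 ran from 2.03 to 2.76 and that of CG5966 from 1.89 to 2.03. Such fits assume that the lone array of a group varies like the other group. The call of CG5966 was lost with no filter on dim probe sets (adjusted p = 0.0740) or with the stricter one (0.0765). It was also lost in a fit with the replicate number as a block (0.0637), though the numbers are not known to pair the arrays. The group held 9 tested genes, of which these 2 rose and 7 did not pass, with a median log2 fold change of 0.27. Of all probe sets tested 1.38% were called higher, and both genes were known from the study's table. Jabba, another droplet protein, had the lowest fold change of the group (-0.38, adjusted p = 0.539).

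Beside 1.38% of all probe sets tested, 1 of 10 tested genes of fatty acid synthesis and activation rose. This was hll (CG4500), a long-chain acyl-CoA synthetase, with signals of 1366 and 1756 in Dop1R2 RNAi pupae against 634 and 505 in controls (log2 fold change 1.45 ± 0.23, SE, adjusted p = 0.0355). With 1 array left out the log2 fold change of hll ran from 1.27 to 1.63. Its call was lost with no filter (adjusted p = 0.0595), in the fit without a trend (0.0998) or with the replicate number as a block (0.0554). AcCoAS, which makes acetyl-CoA, and the malic enzyme gene Men were higher on both Dop1R2 RNAi arrays on their brightest probe sets, by log2 values of 0.76 (adjusted p = 0.255) and 0.69 (adjusted p = 0.274). ATP citrate lyase (ATPCL) had nearly equal signals, 301 and 297 against 323 and 321 (log2 fold change -0.11, 95% interval -0.61 to 0.39). For FASN2, a paralogue of FASN1, the log2 fold change was -0.77 (adjusted p = 0.477). It reached the filter on the control arrays only, the group where it was higher.

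**Figure D3:**
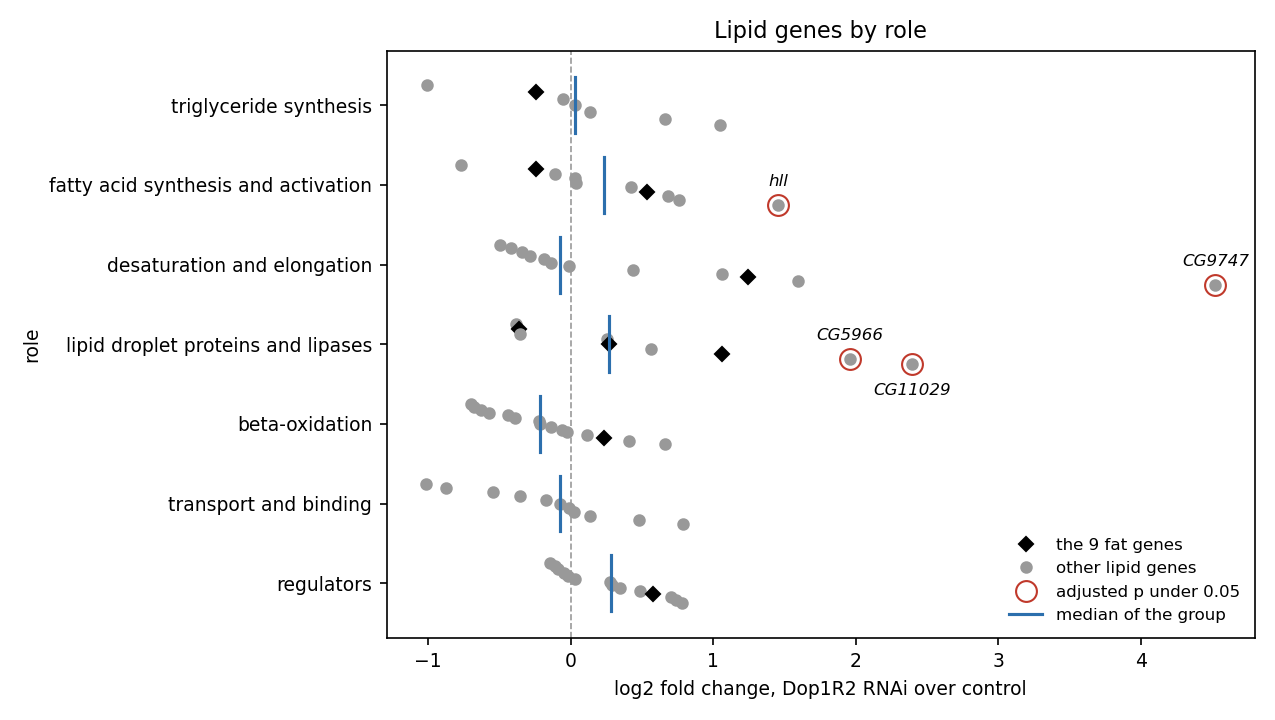
Log2 fold change of Dop1R2 RNAi over control pupae for 78 tested lipid genes grouped by role, with the 9 fat genes as black diamonds, other genes as grey points, group medians as blue lines and genes with adjusted p under 0.05 ringed. The 4 ringed genes, CG9747, CG11029, CG5966 and hll, lie to the right of Desat1 (1.24), the highest of the 9; group medians run from -0.21 for beta-oxidation to 0.28 for regulators.

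Genes of beta-oxidation had the lowest group median, -0.21, and 0 of 15 tested genes passed. With unadjusted p 1 was higher and 4 were lower, beside 7.53% and 5.51% of all probe sets tested. In 6 of the 15 both Dop1R2 RNAi arrays were below both controls and in 3 they were above, beside the 24.0% and 21.1% of all probe sets. The 4 lower ones were Mtpbeta, CG7461, CG4860 and scu. CG4860, of the acyl-CoA dehydrogenase family, had signals of 180 and 195 against 310 and 299 (log2 fold change -0.70, adjusted p = 0.255). The hydroxyacyl-CoA dehydrogenase gene scu had 874 and 660 against 1228 and 1201 (-0.68, adjusted p = 0.265). CG7461 (Acadvl), a very long chain acyl-CoA dehydrogenase, had 106 and 100.4 against 151 and 168 (-0.63, adjusted p = 0.309). In the other direction, Had1 had signals of 276 and 312 against 197 and 175 (0.66, adjusted p = 0.293).

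None of 7 tested genes of triglyceride synthesis passed, beside 1.38% of all probe sets tested called higher and 0.103% lower. Lpin, the phosphatidate phosphatase that supplies the diacylglycerol used by mdy, had signals of 84.3 and 103 against 42.6 and 48.0, above the controls on both arrays (log2 fold change 1.04, 95% interval 0.45 to 1.64, adjusted p = 0.149). Agpat3, an acyltransferase of an earlier step, had 167 and 152 against 319 and 321, below the controls on both (log2 fold change -1.005, 95% interval -1.52 to -0.49, adjusted p = 0.106). The steps around mdy thus had fold changes of either sign. Of lipid transport and binding genes 0 of 11 passed, with log2 fold changes from -1.01 for the lipophorin receptor LpR1 to 0.79 for LpR2. The probe set of LpR2 reached the filter on the Dop1R2 RNAi arrays only, the group where it was higher. Its other probe set was dim, was not tested and was lower on both Dop1R2 RNAi arrays. Of regulators 0 of 14 passed, with a median of 0.28 and a highest value of 0.78 for the sugar-responsive transcription factor Mondo (adjusted p = 0.353), and foxo, which is active in starvation, had the lowest (-0.14, adjusted p = 0.888).

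In RNA from whole pupae, fewer cells of a type and less RNA per cell cannot be told apart. The fat body markers Lsp2, Fbp1, Fbp2, apolpp, Apoltp and Col4a1 are 6 of the 10 on the list. They summed to 20854 and 21214 in Dop1R2 RNAi pupae and to 21202 and 21892 in controls. The sum is weighted to the brightest, Lsp2, with 7317 and 8815 against 8934 and 8972. Fbp1 lay wholly above the controls, Lsp2 and the much dimmer Apoltp (log2 fold change -0.54, adjusted p = 0.433) wholly below, and the other 3 overlapped. Of all probe sets 21.1% lay wholly above and 24.0% below. Of the 6, 0 passed (0 in either direction with unadjusted p). Of oenocyte markers 4 of 7 were measured. They summed to 1696 and 1523 against 1858 and 1547, of which Cyp4g1 gave 1447 and 1312 against 1499 and 1278. All 4 had fold changes below 0, and 0 passed. With unadjusted p 0 were higher and 1 lower, beside 7.53% and 5.51% of all probe sets tested. FASN2 (log2 fold change -0.77, adjusted p = 0.477) and CG18609 (-0.85, adjusted p = 0.223) lay below both controls on both Dop1R2 RNAi arrays, as 24.0% of all probe sets did. FASN2 reached the filter on the control arrays only. It was therefore tested only through the group where it was higher, and its direction is not independent of the filter. For Cyp4g1 and spidey the groups overlapped. The summed muscle markers, 3 of 5, were 7667 and 5168 against 7862 and 6688, and 6 of 7 measured midgut markers were dim on these arrays. No marker was at 0. The 3' over 5' signal of the control probes, a measure of RNA length, was 3.98 and 2.82 for eIF-4A in Dop1R2 RNAi pupae against 4.59 and 4.24 in controls, and 3.88 and 3.90 against 4.61 and 3.97 for Gapdh. Both were thus lower on both Dop1R2 RNAi arrays, and their part in the differences above was not tested. For actin it was 2.07 on both arrays numbered 1 and 1.61 on both numbered 2. In each group Lsd-2, Desat1 and bmm were brighter on the array numbered 2. The tested probe sets of ACC and mdy were dimmer there, and for the other measured genes the groups differed in this. A link to the actin value was not tested.

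**Figure D4:**
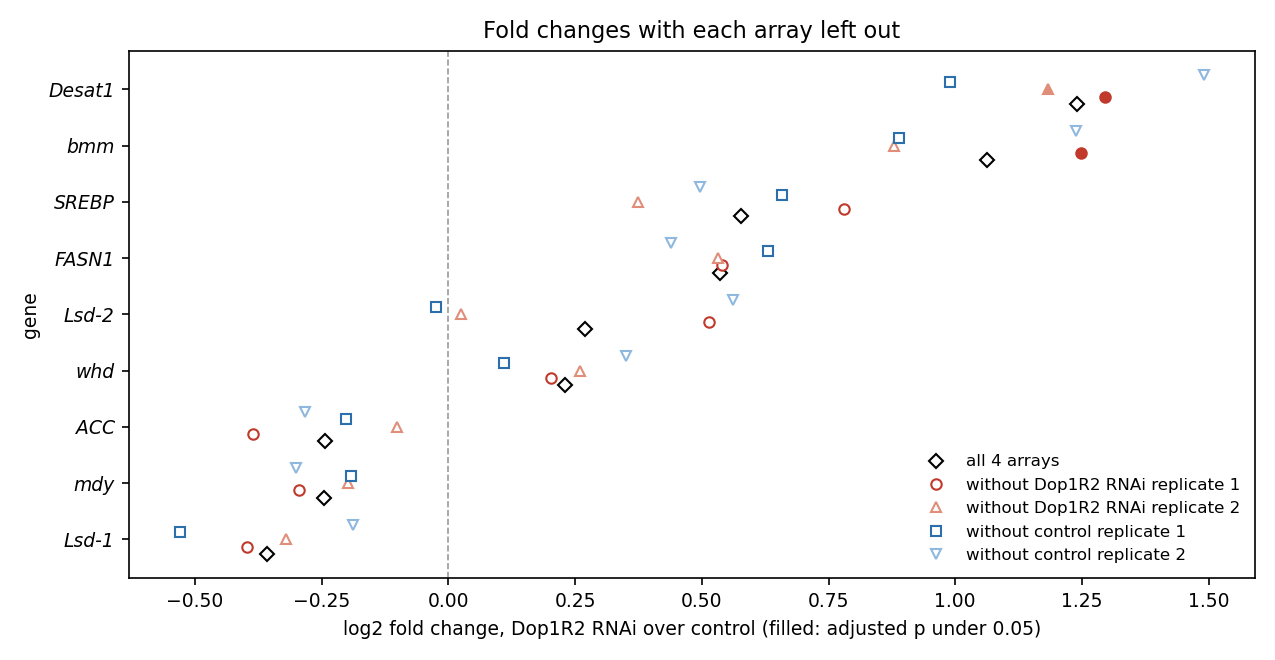
Log2 fold change of the 9 tested genes with all 4 arrays (black diamonds) and with each array left out in turn (coloured symbols); filled symbols have adjusted p under 0.05. Desat1 is filled without either Dop1R2 RNAi array and bmm without Dop1R2 RNAi replicate 1, all other symbols are open, and Lsd-2 alone crosses 0, at -0.02 without control replicate 1.

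The precision of 2 arrays per group was the same order for all 9 genes, with standard errors from 0.21 to 0.29 on the log2 scale. For the 7 genes other than Desat1 and bmm the 95% intervals reached from -0.85 at the lowest, for Lsd-1, to 1.17 at the highest, for SREBP, which is 2.25-fold. Changes inside these intervals could not be told from none with these arrays.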

How the data were processed

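Total RNA from pooled early pupae was hybridized to DrosGenome1 arrays. The deposited table holds, for every array, a linear signal intensity for each probe set that the authors obtained from Microarray Suite; the submitters' processing notes name MAS5, and its version is not given in the sources used here. Median signals were 43.4 to 45.0. Detection calls, on which the study filtered, were not used here.

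The 44 control probe sets were left out of the test. Signals were log2-transformed with nothing added, dim probe sets (below the 40th percentile on more than 2 arrays) were dropped, and the groups were compared across all 8749 with limma 3.58.1 in R 4.3.3 (lmFit, eBayes with a trend, 2 residual and 4.95 prior degrees of freedom), with Benjamini-Hochberg adjustment. The methods name a t-test, and its equal-variance form on log2 signals was run as an alternative. The code of the fit was run on simulated arrays and had to recover large changes. This does not show that changes of the size of Desat1 would be called. Standard errors and intervals are limma's. The number of arrays limits the precision.

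Genes were named through probe sets with 1 gene name (12442 of 13966), updated through RefSeq names (Release 6 plus ISO1 MT). The brightest probe set stood for a gene that has several. The set of 10 genes, the lists of lipid genes and markers and the tests were chosen with earlier results of these data known. The rule for naming took all 10 genes, each lipid gene that passed, and the largest rise and fall in each role, and allowed others whose groups do not overlap; S2P, Desat2 and CG9743 were added for their roles after their values were seen. Same-numbered arrays are not stated to share a batch. Tables and figures used Python 3.11.15, pandas 2.3.3, numpy 2.4.6 and matplotlib 3.10.9.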

Additional observations from a re-analysis of the deposited data

How the results depend on the processing

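With no filter, a stricter filter (60th percentile), signals raised to the 20th percentile, an added value of 32, median centring, quantile normalization, no trend, any probe set of a gene in place of the brightest, or the replicate number as a block, 0 of the 10 genes were called in either direction. FASN1 was dim under the stricter filter and was not tested there. With 1 array left out, the log2 fold change of Desat1 ran from 0.99 to 1.49 and that of bmm from 0.88 to 1.25. The methods' t-test called 2 higher without adjustment, and with it 0 of all 8749 probe sets tested. Of 107 single fold changes in the other settings, the t-test not among them, 1 changed sign. It was that of Lsd-2, which ran from -0.024 (without control replicate 1) to 0.56 with 1 array left out. The 2 changes of filter, the fit without a trend and the block leave a fold change as it is, so there only p could differ. Of the lipid genes as a whole, with the 10 included, 4 were higher and 0 lower. Without the filter 2 were higher, with 1 array left out 0 to 8 higher and 0 to 3 lower, and by the t-test 12 higher and 7 lower without adjustment and 0 with it. The cause of these shifts was not tested. With the replicate block 3 lipid genes were higher, CG9747, CG11029 and CG5326, and 0 lower, beside 131 and 10 of all 8749 probe sets. In that fit CG5966 (adjusted p = 0.0637) and hll (0.0554) did not pass. The deviations of same-numbered arrays had a correlation of 0.151, and the numbers are not known to pair the arrays. Signals under the 20th percentile limit what can be said of the second probe sets of ACC and mdy.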
